A study of Homo sapiens with 38 samples.

Results

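LCN2 and 9 regulators of the NF-κB pathway were followed by RNA-seq in human breast cancer cells treated with degraders and inhibitors of the histone methyltransferase EZH2. The 10 genes were taken by symbol: LCN2, NFKBIZ, NFKBIA, TNFAIP3, TNFAIP2, BIRC3, RELB, NFKB1, NFKB2 and CEBPD. All 10 were found among the 24463 genes that the series lists. LCN2 was chosen by its higher values with MS177 than with DMSO in T47D-TR and T47D, and the others because they regulate NF-κB or LCN2. The members' values in those comparisons are therefore a description, with no test.

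The 38 libraries fall into 19 groups of 2 by their labels, from the established lines T47D, T47D-TR and BT-549, all kept in serum-containing medium with insulin. At 48 h each line had received 2.5 μM MS177 (a PROTAC, which recruits a ubiquitin ligase to its target, here EZH2), 2.5 μM MS177-N1 or MS177-N2 (its negative controls), 2.5 μM C24 (an inhibitor of EZH2's methyltransferase activity) or 0.125% DMSO, the vehicle. At 30 h T47D-TR cells had received 2.5 μM MS8815 (a second EZH2 PROTAC), 2.5 μM MS8815-N (its negative control), 2.5 μM EPZ-6438 (a methyltransferase inhibitor) or 0.05% DMSO. Nothing in the labels says that paired libraries came from separate cultures, so the p-values below measure the spread between 2 libraries, which may be technical. Each is a single cell line, so the spread covers no differences between tumours. The study asked how EZH2 PROTACs act on breast cancer cells.

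NF-κB is a family of dimeric transcription factors. In resting cells inhibitor proteins (IκB) hold it in the cytoplasm, and signals from receptors such as those for TNF and interleukin-1 lead kinases to destroy the inhibitors. Among the genes that NF-κB then induces are its own inhibitors and subunits, which gives the pathway its feedback. LCN2 encodes lipocalin-2, a secreted protein that binds iron-loaded siderophores, and its induction by inflammatory signals is known to use NF-κB, the nuclear cofactor IκBζ (NFKBIZ) and C/EBP factors, of which CEBPD encodes a member.

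On hg38, in the GENCODE annotation, LCN2 lies at chr9:128149071-128153455 (plus strand), NFKBIZ at chr3:101827991-101861022 (plus) and NFKBIA at chr14:35401511-35404749 (minus). RELB lies at chr19:45001430-45038198 (plus), NFKB1 at chr4:102501329-102617302 (plus) and NFKB2 at chr10:102394110-102402529 (plus). TNFAIP3 lies at chr6:137867188-137883312 (plus), BIRC3 at chr11:102317450-102339403 (plus) and TNFAIP2 at chr14:103123442-103137439 (plus). All 10, CEBPD included, are protein-coding, and the values are per gene.

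The promoters of LCN2, NFKBIZ and NFKBIA are shown because these 3 genes are known NF-κB targets whose levels followed different courses below. The sequences are those of RefSeq on GRCh38.p14, 5′ to 3′ on the gene's own strand, outside annotated exons. Capitals mark matches to the κB consensus and, in LCN2, to the C/EBP motif TTGCNNAA, both searched on either strand. The LCN2 stretch is chr9:128149265-128149440 (plus strand, bases -188 to -13 from the RefSeq start, intronic in the GENCODE gene, which begins upstream), the NFKBIZ stretch chr3:101827740-101827989 (plus strand, -250 to -1), and the NFKBIA stretch chr14:35404750-35404999 (minus strand, -250 to -1).
LCN2: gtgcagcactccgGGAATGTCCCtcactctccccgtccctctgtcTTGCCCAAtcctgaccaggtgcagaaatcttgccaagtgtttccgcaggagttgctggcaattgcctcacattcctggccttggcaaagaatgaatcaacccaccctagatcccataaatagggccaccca
NFKBIZ: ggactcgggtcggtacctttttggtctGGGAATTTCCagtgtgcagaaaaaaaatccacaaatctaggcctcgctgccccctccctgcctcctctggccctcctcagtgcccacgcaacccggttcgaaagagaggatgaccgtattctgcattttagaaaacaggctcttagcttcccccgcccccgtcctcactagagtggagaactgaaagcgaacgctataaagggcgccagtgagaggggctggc
NFKBIA: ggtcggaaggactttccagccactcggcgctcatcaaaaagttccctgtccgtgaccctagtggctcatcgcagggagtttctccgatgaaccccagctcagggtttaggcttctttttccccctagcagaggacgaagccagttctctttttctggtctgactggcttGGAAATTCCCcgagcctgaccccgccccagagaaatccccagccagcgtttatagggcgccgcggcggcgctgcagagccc
In LCN2 the κB match lay at -175 to -166 and the C/EBP match at -143 to -136, without overlap. The κB match lay at -223 to -214 in NFKBIZ and at -81 to -72 in NFKBIA. Of the 10 genes, 8 had a promoter in the RefSeq table (RELB and CEBPD did not), with 12 windows of 250 bases before and 50 from a start. At least 1 κB match was found in 9 of the 12 windows (7 of the 8 genes), against 11.3% of all 35116 windows. The C/EBP motif was found in 2 of the 12 windows, of LCN2 and TNFAIP2, against 10.5% of all windows. These are matches of letters, not measured binding sites.

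Levels are given as normalized counts, which were back-calculated from the deposited log2 values of each table of a compound and its DMSO libraries. They can be compared within a table and, between genes, not at all, since they are not per length. Differences with a standard error (SE) are on the deposited log2 scale, which is compressed near its lowest value, so they understate the change of low genes. The values of T47D and BT-549 returned whole reads, with totals of 32.1 M to 49.9 M reads per library, while those of T47D-TR did not, so the depth of T47D-TR libraries is unknown. The 10 luminal breast markers were all above 1 CPM (normalized counts per-million of the listed genes) in DMSO cells of T47D and T47D-TR, and 9 of 10 mesenchymal and basal markers were in BT-549. Above 1 CPM were also 5 luminal markers in BT-549 and 3 mesenchymal and basal markers in T47D and in T47D-TR at 48 h. Neutrophils also express LCN2, and of 12 blood and endothelial markers their genes MPO and CSF3R were not listed in the MS177 tables or the MS8815 table. Their gene ELANE was listed in BT-549 alone of these, at 14.0 and 21.3 normalized counts with MS177, against 73.9 and 48.9 with DMSO (adjusted p = 0.025). ELANE passed the filter on low values there only through its DMSO libraries, so this p is not independent of their high values. Of 3 markers of that set tested there, 1 was called higher and 1, ELANE, lower, where 27.3% of all genes were called. With MS177-N2 in BT-549 2 of 3 were called higher, where 3.42% of all genes were called. The listed markers of that set, 4 in T47D-TR, 3 in T47D, 5 in BT-549 and 2 in the MS8815 table, summed to 4.72 to 5.75 CPM with MS177, against 2.02 to 2.16 with DMSO, in T47D-TR. They summed to 1.13 to 1.43, against 1.66 to 2.0, in T47D, to 10.0 to 11.1, against 6.65 to 7.45, in BT-549, and to 1.76 to 2.90 with MS8815, against 1.79 to 2.40. Their part in the results was not tested. Some libraries stood apart. In the T47D table for MS177-N1, the second treated column held the same reads as MS177-N2 replicate 2 in 100% of 17724 shared genes and was left out, so MS177-N1 in T47D is 1 library. In MS8815-N replicate 2, 44.3% of genes were at 0, and it correlated at r = 0.734 with its pair across genes. Both MS8815 libraries (r = 0.925), both EPZ-6438 libraries (r = 0.942), both C24 libraries of T47D-TR (r = 0.969) and both MS177 libraries of T47D (r = 0.936) also agreed less well than the DMSO pairs (r = 0.986 to 0.995). In MS8815 replicate 1 HSP90AA1 alone held 12.4% of the normalized counts, while the top gene of replicate 2, EEF1A1, held 1.90%. Genes at 0 were 4.93% in replicate 1, against 1.72% in replicate 2, and both libraries enter each MS8815 mean. EZH2 mRNA averaged 359 ± 19.6 normalized counts with MS177 and 247 ± 10.7 with DMSO in T47D-TR (SD, n = 2 each, adjusted p = 0.017), and passed no test in the other comparisons. A PROTAC acts on the protein, so this level does not check the treatment.

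LCN2 was near the limit of detection in vehicle-treated luminal cells and was among the clearly detected genes with MS177. In T47D-TR it had 1091 and 1106 normalized counts with MS177, against 3.63 and 1.62 with DMSO. In T47D it had 2009 and 744 with MS177, against 15 and 8.17 with DMSO, a ratio of means of 119. Both MS177 libraries lay far above both DMSO libraries in each line, but in T47D they differed from each other by more than they did in T47D-TR. No fold is given for T47D-TR because its DMSO mean is under 10 normalized counts. In bulk libraries more cells with LCN2 and more LCN2 RNA per cell cannot be told apart.

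The same gene rose with MS177 in BT-549, which was no part of the choice. It had 71.0 and 84.2 normalized counts with MS177, against 27.5 and 31.2 with DMSO, a ratio of 2.65. The difference was 0.61 ± 0.11 (SE) on the deposited scale, with an adjusted p of 0.015 (limma, Benjamini-Hochberg over all genes of the table). LCN2 also rose with the other PROTAC: with MS8815 at 30 h in T47D-TR it had 110 and 71.4 normalized counts, against 0 and 1.73 with DMSO (1.74 ± 0.20, adjusted p = 0.034). It passed the filter on low values there only through its MS8815 libraries, so this p is not independent of their high values. Without DMSO replicate 3, which is the library at 0, the difference was 1.60 and the adjusted p 0.091, so that call rests on that library. Leaving out any 1 library gave differences of 1.56 to 1.92.

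The negative controls and inhibitors left LCN2 at low levels. In T47D-TR it had 4.38 and 18.3 normalized counts with MS177-N1, against 3.15 and 1.39 with DMSO. It had 5.69 and 6.31 with MS177-N2, against 4.16 and 1.88, and 5.69 and 1.32 with C24, against 3.77 and 1.69. Only the second MS177-N1 library was above 10 there. In T47D the library with MS177-N1 had 15.5, against 16.6 and 8.98 with DMSO, and those with MS177-N2 had 8.64 and 10.9, against 16.7 and 9.0. The C24 libraries of T47D had 14.6 and 6.32, against 16.8 and 9.07. The T47D values overlapped those of DMSO, and LCN2 passed the filter on low values in none of these 6 tables.

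In BT-549 LCN2 had 21.8 and 24.9 normalized counts with MS177-N1, against 28 and 31.8 with DMSO. It had 31.5 and 29.3 with MS177-N2, against 26.5 and 30.0 (adjusted p = 0.890), and 26.7 and 14.0 with C24, against 29.2 and 33.1. The MS177-N1 and C24 libraries were below their DMSO libraries, without a test because LCN2 missed the filter in those tables. At 30 h EPZ-6438 libraries of T47D-TR had 3.59 and 7.51, against 0 and 2.05 with DMSO. LCN2 is not listed in the MS8815-N table, and no value is given for it there.

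**Figure D1:**
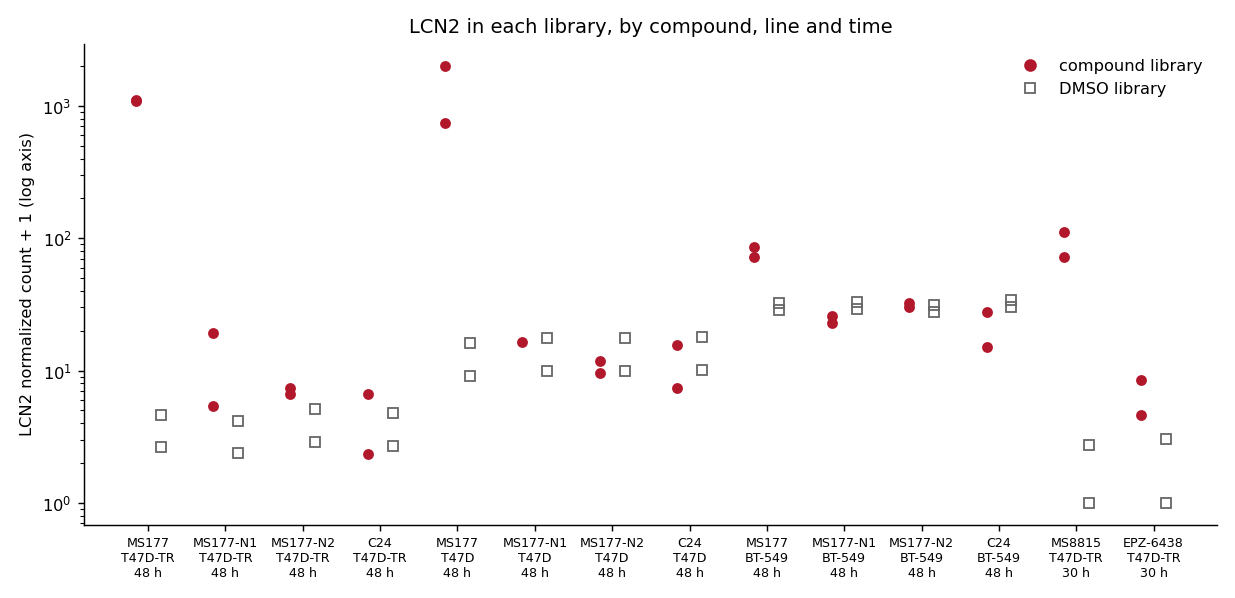
LCN2 in every library as normalized count + 1 on a log axis, with compound libraries as filled circles and the DMSO libraries of the same table as open squares. The MS177 libraries of T47D-TR and T47D sit between 744 and 2009 normalized counts and those of MS8815 at 71.4 and 110, all far above their DMSO libraries, while the MS177 libraries of BT-549 at 71.0 and 84.2 start from a higher DMSO level.

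In DMSO cells LCN2 was higher in BT-549 than in the luminal lines, on the CPM scale, set across separately normalized tables. It stood at 0.712 and 0.849 CPM in BT-549, at 0.445 and 0.238 in T47D and at 0.273 and 0.127 in T47D-TR at 48 h. The 30 h DMSO libraries of T47D-TR had 0 and 0.201. The BT-549 libraries were above the others, while T47D and T47D-TR overlapped. NFKBIZ was also highest in BT-549, by a wider margin, with 45 and 55 CPM, against 4.21 and 3.61 in T47D and 3.17 and 5.42 in T47D-TR. RELB had 44.3 and 45.8 CPM in BT-549, against 4.45 and 4.65 in T47D and 3.35 and 4.04 in T47D-TR. BIRC3 was not highest in BT-549, with 34.7 and 26.0 in T47D-TR, 20.3 and 21.3 in BT-549 and 5.34 and 5.54 in T47D.

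Among the subunit genes, those of the non-canonical arm, RELB and NFKB2, were higher with MS177 in both luminal lines, and NFKB1 was not. RELB encodes the partner of the processed NFKB2 product. In T47D-TR RELB had 246 and 267 normalized counts with MS177, against 44.5 and 51.7 with DMSO, a ratio of 5.33. The T47D libraries had 486 and 354 with MS177, against 150 and 159 with DMSO, a ratio of 2.71. The groups did not overlap in either line. NFKB2 had 668 and 598 with MS177, against 215 and 342 with DMSO in T47D-TR (2.27-fold), and 4076 and 3240, against 2155 and 2310, in T47D (1.64-fold).

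In BT-549, where both genes started higher, neither passed the test. RELB had 1356 and 1473 normalized counts with MS177, against 1709 and 1682 with DMSO (-0.25 ± 0.11 on the deposited scale, adjusted p = 0.147). NFKB2 had 5021 and 5501, against 4989 and 4965 (0.08 ± 0.11, adjusted p = 0.634). MS8815 gave values on the same side as MS177 in T47D-TR, without passing the test. RELB had 102 and 129 with MS8815, against 38.4 and 44.2 with DMSO (2.80-fold, adjusted p = 0.061). Leaving out any 1 library gave RELB differences of 0.67 to 0.88 on the deposited scale. NFKB2 had 239 and 523, against 178 and 69.9 (3.08-fold, adjusted p = 0.157).

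NFKB1, the precursor subunit of the canonical arm, was lower in T47D-TR with MS177, at 441 and 359 normalized counts, against 519 and 551 with DMSO (0.748-fold). In T47D its MS177 libraries, at 629 and 1196, lay on either side of the DMSO libraries at 849 and 794. In BT-549 it had 2403 and 1858 with MS177, against 2106 and 2191 with DMSO (adjusted p = 0.928). With MS177-N1 in T47D-TR it fell to 345 and 147, against 454 and 477 with DMSO (-0.60 ± 0.19, adjusted p = 0.045). That was the call of a member with a negative control or inhibitor, 1 of 6 members tested there with 27.5% of all genes called, and its adjusted p was 0.083 to 0.109 under 4 of the other settings. With MS8815 NFKB1 had 18.5 and 218, against 240 and 277 with DMSO (adjusted p = 0.299), and replicate 1, which stood apart from its pair across genes, was the low library.

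The inhibitor genes NFKBIA and NFKBIZ moved apart in BT-549. NFKBIZ encodes IκBζ, a nuclear cofactor needed for a subset of NF-κB targets that includes LCN2. It rose with MS177 to 4740 and 3809 normalized counts, against 1734 and 2019 with DMSO (2.28-fold, 1.14 ± 0.15, adjusted p = 0.0081). NFKBIA encodes IκBα, the inhibitor that is destroyed and made again in each round of signalling. It fell to 2115 and 2605 with MS177, against 4831 and 4034 with DMSO (0.532-fold, -0.88 ± 0.16, adjusted p = 0.016). Both calls held without any single library.

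In the luminal lines NFKBIZ was low and did not follow LCN2. In T47D-TR it had 13.9 and 38.2 normalized counts with MS177, against 42.1 and 69.3 with DMSO, and missed the filter. In T47D it had 57.4 and 163, against 142 and 124, with 1 MS177 library on each side of the DMSO libraries. NFKBIA overlapped between groups in both lines, at 850 and 1005 with MS177, against 878 and 798 with DMSO, in T47D-TR, and at 1631 and 1225, against 1461 and 1650, in T47D. With MS8815 NFKBIA had 1140 and 905, against 605 and 576 with DMSO (1.73-fold, adjusted p = 0.099). NFKBIZ had 28.9 and 26.3 with MS8815, against 10.0 and 9.83 with DMSO (adjusted p = 0.130).

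TNFAIP3 encodes a ubiquitin-editing enzyme that shuts off NF-κB signalling, and its gene overlaps an antisense gene on the opposite strand at its start. The labels do not state strand-specific counting, so reads of the 2 genes cannot be told apart there. It had 90.8 and 98.2 normalized counts with MS177, against 18.7 and 38.7 with DMSO, in T47D-TR, where it missed the filter. Its T47D libraries had 80.9 and 309 with MS177, against 66.1 and 78.6 with DMSO, so the ratio of 2.69 rests on 1 MS177 library. In BT-549 the groups overlapped, at 1595 and 1263 with MS177 and 1168 and 1468 with DMSO (adjusted p = 0.668). With MS8815 it had 18.7 and 28.4, against 6.68 and 14.2 with DMSO, again below the filter.

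**Figure D2:**
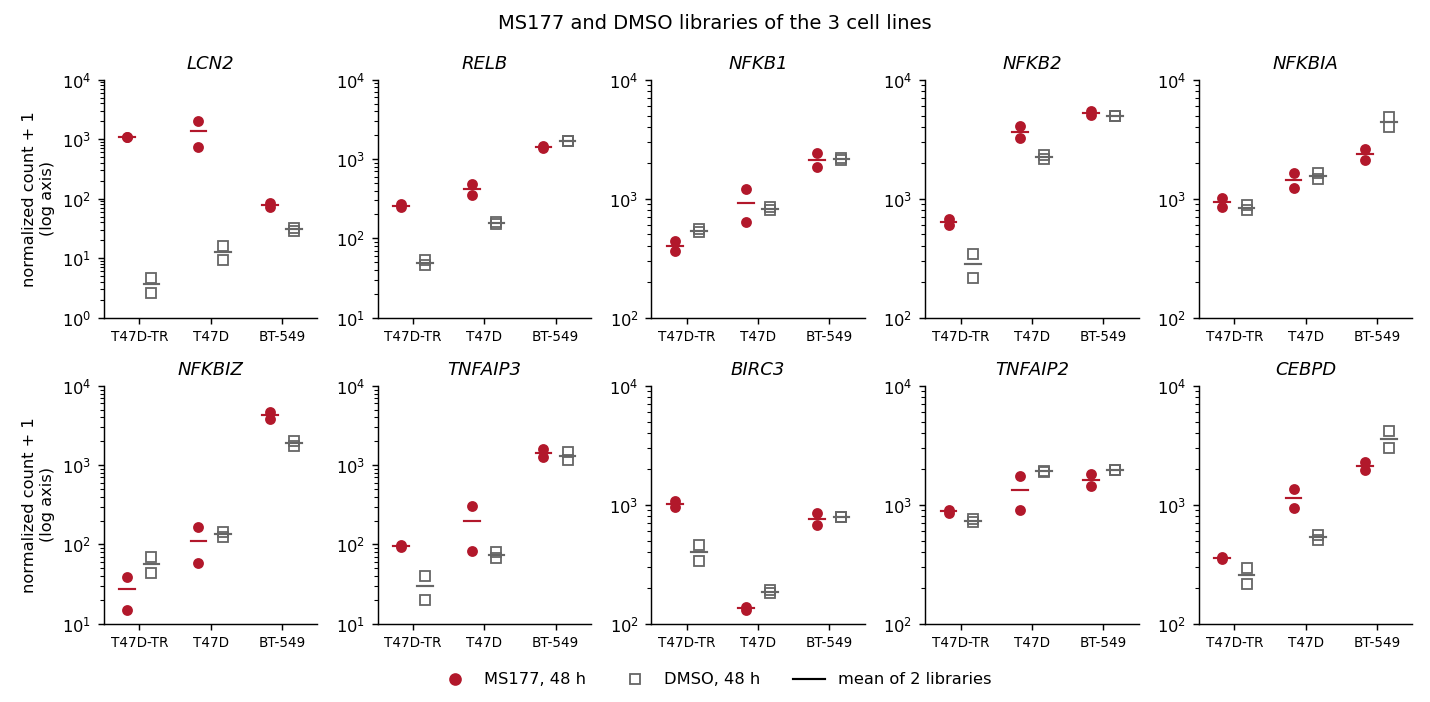
The 10 genes in the MS177 libraries (filled circles) and DMSO libraries (open squares) of each line at 48 h, as normalized count + 1 on log axes, with a bar at the mean of 2 libraries. LCN2, RELB and NFKB2 lie higher with MS177 in T47D-TR and T47D, whereas in BT-549 NFKBIZ lies higher (4740 and 3809, against 1734 and 2019 with DMSO) and NFKBIA lower (2115 and 2605, against 4831 and 4034).

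BIRC3 and TNFAIP2 gave different pictures in the 2 luminal lines. BIRC3 encodes a ubiquitin ligase that restrains cell death and the non-canonical kinase MAP3K14. It had 955 and 1079 normalized counts with MS177, against 462 and 333 with DMSO, in T47D-TR (2.56-fold). T47D cells had 138 and 130 with MS177, against 181 and 190 with DMSO (0.723-fold). The groups did not overlap in either line, with MS177 above in T47D-TR and below in T47D. In BT-549 it had 851 and 671, against 781 and 782 (adjusted p = 0.845), and with MS8815 158 and 173, against 199 and 199 with DMSO (adjusted p = 0.464).

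TNFAIP2, a TNF-induced gene linked to membrane protrusions, had 850 and 906 normalized counts with MS177, against 711 and 754 with DMSO, in T47D-TR (1.2-fold). In T47D it had 907 and 1746 with MS177, against 1893 and 1921 with DMSO, and in BT-549 1827 and 1435, against 1950 and 1970 (adjusted p = 0.230). Its higher values in BT-549 were with MS177-N2, at 2715 and 2703, against 1883 and 1897 with DMSO (1.43-fold, 0.50 ± 0.14, adjusted p = 0.056). With MS8815 the groups overlapped, at 501 and 305 and at 284 and 356 with DMSO (adjusted p = 0.573).

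CEBPD, a C/EBP factor induced in acute inflammation, was higher with MS177 in both luminal lines and lower in BT-549. It had 347 and 365 normalized counts with MS177, against 293 and 214 with DMSO, in T47D-TR (1.40-fold), and 1349 and 935, against 503 and 561, in T47D (2.14-fold). In BT-549 it fell to 1974 and 2302, against 4208 and 2978 with DMSO (0.595-fold, -0.71 ± 0.19, adjusted p = 0.0495). The call is at the edge of the threshold: without MS177 replicate 1 the adjusted p was 0.053, without DMSO replicate 1 it was 0.189, and without the filter it was 0.051. With MS8815 CEBPD had 292 and 293, against 197 and 156 with DMSO (1.66-fold, adjusted p = 0.124).

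Counted together, all 10 genes passed the filter with MS177 in T47D and in BT-549 and 8 did in T47D-TR, where NFKBIZ and TNFAIP3 did not. In T47D-TR, where 62.5% of all genes were called, 6 of the 8 were higher and 1 lower without overlap of the libraries, where 41% of all tested genes were higher and 40.8% lower in this way. In T47D 5 were higher and 2 lower without overlap, where 27.5% of all genes were higher and 28% lower. Nothing is read from these counts, since those comparisons chose LCN2. In T47D-TR, LCN2 and RELB also passed the filter only through their MS177 libraries. In BT-549 2 of 10 passed the test as higher (LCN2 and NFKBIZ) and 2 as lower (NFKBIA and CEBPD), where 27.3% of all genes passed, 12.9% as higher and 14.4% as lower. The median difference over the members was -0.03 there, against 0.01 over all genes. With MS8815 1 of 9 passed as higher, LCN2, where 6.25% of all genes were called and 3.27% as higher, and the median was 0.55 over the members, against 0.00 over all genes. LCN2 and NFKBIZ passed the filter there only through their MS8815 libraries.

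With the negative controls and inhibitors, 1 call was made over the members, NFKB1 with MS177-N1 in T47D-TR. The shares of all genes called in the other 10 of these comparisons were 0.175% with MS177-N2 and 0.00851% with C24 in T47D-TR, 0.179% with MS177-N1, 0% with MS177-N2 and 0.847% with C24 in T47D, 0% with MS177-N1, 3.42% with MS177-N2 and 0.134% with C24 in BT-549, and 0% with MS8815-N and with EPZ-6438. Where no gene was called, 522, 309, 289 and 157 genes had an unadjusted p under 0.05 in limma, with MS177-N2 in T47D, MS177-N1 in BT-549, MS8815-N and EPZ-6438. MS8815-N replicate 2 listed NFKB1, NFKB2, RELB, NFKBIZ and TNFAIP3 at 0. Without it the difference of NFKB2 was 0.45, against -0.46 with it, and that of NFKB1 -0.41, against -1.20 (adjusted p = 0.798 with it).

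**Figure D3:**
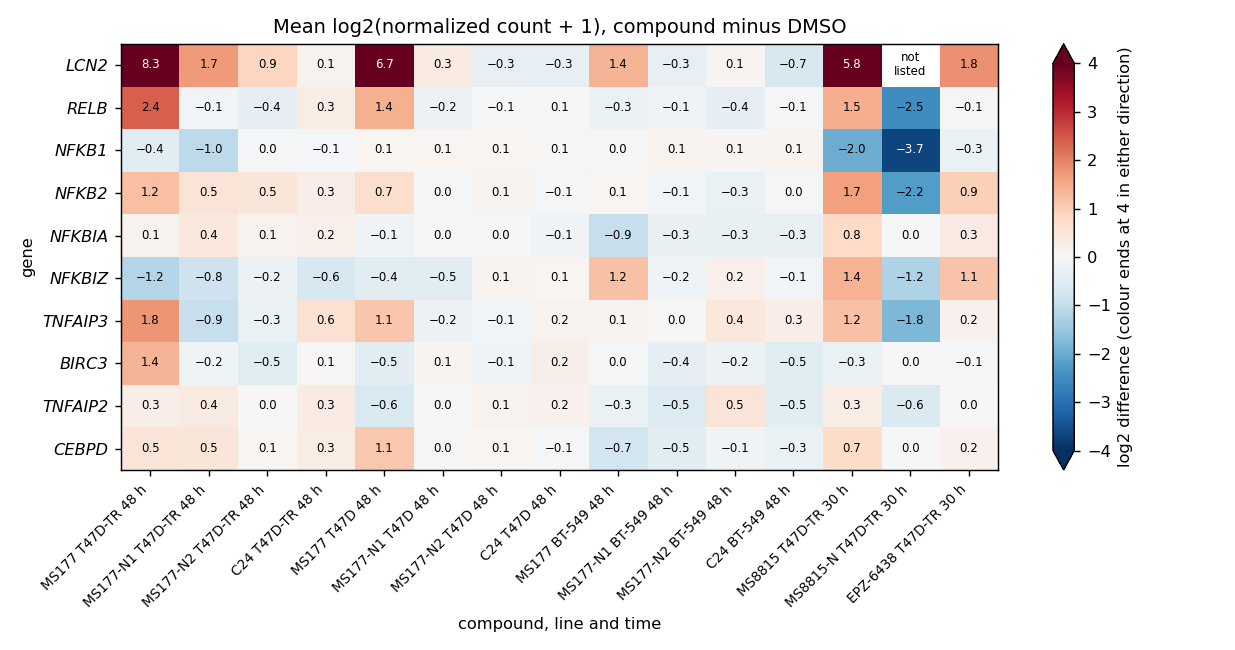
Mean log2(normalized count + 1) with each compound minus that with DMSO, for the 10 genes (rows) in the 15 comparisons (columns), with the value in each cell. LCN2 stands at 8.30 with MS177 in T47D-TR, 6.66 in T47D and 5.76 with MS8815, and at 1.37 with MS177 in BT-549, where NFKBIZ is at 1.18 and NFKBIA at -0.91. LCN2 values of T47D-TR, where DMSO libraries are near 0, and cells with a library at 0 depend on the pseudocount of 1 and are no folds.

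The PROTACs were also set directly against their negative controls and inhibitors at the same dose and time, MS177 in BT-549 only. The negative controls of MS177 were set against each other in T47D-TR and BT-549. These 7 comparisons were made on log2(normalized count + 1) and use all libraries of a line and time. In BT-549 LCN2 was higher with MS177 than with MS177-N1 by 1.72 (95% confidence interval 1.00 to 2.43, adjusted p = 0.0033). It was higher than with MS177-N2 by 1.27 (0.55 to 1.99, adjusted p = 0.013) and than with C24 by 2.02 (1.31 to 2.74, adjusted p = 0.0013). The call against MS177-N2 was lost on leaving out single libraries, with an adjusted p of up to 0.079. NFKBIZ was higher with MS177 by 1.35, 0.99 and 1.29 against the same 3 compounds (adjusted p = 0.00057, 0.0026 and 0.00063). NFKBIA was lower by -0.60, -0.63 and -0.61 (adjusted p = 0.014, 0.010 and 0.012), and its adjusted p reached 0.082 on leaving out single libraries.

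Against MS177-N2 TNFAIP2 was also lower with MS177, at 1827 and 1435 normalized counts, against 2815 and 2803 (-0.79, -1.14 to -0.45, adjusted p = 0.0035), and CEBPD was lower by -0.59 (-1.02 to -0.16, adjusted p = 0.038). The CEBPD call was lost on leaving out any 1 library of the 2 compounds (adjusted p 0.058 to 0.166) and with the replicate block (0.052). Of the 10 members, 3 passed against MS177-N1 and against C24 and 5 against MS177-N2, where 33.1%, 35.7% and 37.2% of all genes did. RELB, NFKB1, NFKB2, TNFAIP3 and BIRC3 passed in none of them. The interval for RELB was -0.39 to 0.12 against MS177-N1, -0.15 to 0.36 against MS177-N2 and -0.44 to 0.06 against C24. The 2 negative controls differed from each other for TNFAIP2 in BT-549, with 2815 and 2803 for MS177-N2 and 1351 and 1336 for MS177-N1 (1.06, 0.72 to 1.40, adjusted p = 0.020), where 0.349% of all genes passed. That call was lost on leaving out any 1 library of the 2 compounds (adjusted p 0.107 to 0.202). In T47D-TR no member differed between MS177-N2 and MS177-N1, where 9.18% of all genes did, and NFKB1 came nearest (1.00, 0.24 to 1.76, adjusted p = 0.075).

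At 30 h no member that all 3 tables list passed between MS8815 and MS8815-N, where 0.0574% of all genes passed, or between MS8815 and EPZ-6438, where 0.108% did. The intervals were wide: RELB differed by 4.63 (0.69 to 8.57, adjusted p = 0.325) from MS8815-N, of which replicate 2 was at 0, so that this value depends on the pseudocount, and by 1.54 (-2.40 to 5.49, adjusted p = 1.00) from EPZ-6438. LCN2 could be set against EPZ-6438 only in a fit of those 2 compounds and DMSO. It had 110 and 71.4 normalized counts with MS8815, against 3.04 and 6.36 with EPZ-6438 on the scale of the MS8815 table (4.04, 2.14 to 5.94, adjusted p = 0.046), a difference that depends on the pseudocount because the EPZ-6438 libraries are under 10. LCN2 entered this fit only through its MS8815 libraries, so its p is not independent of their high values.

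The other genes of the pathway were counted in 6 lists. With MS177 62.5% of all genes were called in T47D-TR and 27.3% in BT-549, and 6.25% were with MS8815, and the counts of each list are read against these shares. The list of 35 other NF-κB target genes moved mostly up with MS177. In T47D-TR 11 of 15 tested genes rose and 2 fell (86.7% called), with a median difference of 1.07, against 0.00 over all genes. Of the 26 listed targets 15 passed the filter on low values. Genes low with DMSO could pass it only through high MS177 libraries, so the share and the median can lean upward. IL32 and IRF1 passed in this way, so their p-values are not independent of their high values. IL32 had 1185 and 1354 normalized counts with MS177, against 22.5 and 24.2 with DMSO (54.3-fold, adjusted p = 5.7e-06), and IRF1, an interferon-response factor, had 1106 and 987, against 68.3 and 83.8 (13.8-fold, adjusted p = 9.6e-06). KLF6 (9.05-fold) and IER3 (4.98-fold), immediate-early genes, rose as well. In BT-549 17 of 29 rose and 6 fell (79.3% called), with a median of 0.58, against 0.01 over all genes. There the cytokine gene IL6 had 3642 and 4080 with MS177, against 155 and 96.7 with DMSO (30.7-fold, adjusted p = 0.00072). CXCL8 (5.87-fold) and CXCL2 (3.68-fold), which encode neutrophil-attracting chemokines, and IER3 (8.58-fold) rose with it.

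NFKBIA, itself an NF-κB target, fell in that line. In T47D no gene of any list passed with MS177, since limma called 0 of 18146 genes, with 3247 at an unadjusted p under 0.05, and the median over 22 targets was 0.89, against 0.01 over all genes. IL32 had 745 and 217 with MS177, against 51.0 and 48.0 with DMSO there (adjusted p = 0.173). With MS8815 2 of 15 targets rose, IL32 (34.2-fold, adjusted p = 0.015) and KLF6 (8.59-fold, adjusted p = 0.042), and none fell. With MS177-N1 in T47D-TR KLF6 (1.70-fold) and IER3 (1.40-fold) rose, and with MS177-N2 in BT-549 C3 (2.57-fold) and ICAM1 (1.73-fold) did. With C24 in T47D IER3 fell (0.759-fold, adjusted p = 0.042).

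Of the kinases, adaptors and ubiquitin enzymes, MAP3K14 and IKBKE moved by much. MAP3K14, the kinase that starts the non-canonical arm of RELB and NFKB2, rose with MS177 in T47D-TR to 690 and 653 normalized counts, against 67.1 and 116 with DMSO (7.35-fold, adjusted p = 4.7e-05). It rose with MS8815 too, to 87.5 and 86.7, against 17.1 and 15.6 with DMSO (5.33-fold, adjusted p = 0.038). In both comparisons it passed the filter on low values only with the compound libraries counted. In BT-549 it had 3726 and 3176 with MS177, against 4474 and 5418 with DMSO (adjusted p = 0.060). As for RELB, the libraries lay above DMSO in T47D-TR and below it in BT-549.

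IKBKE, an IκB kinase-related gene, fell with MS177 in T47D-TR to 22.0 and 3.25, against 221 and 200 with DMSO (adjusted p = 0.00014), and in BT-549 to 20.6 and 13.6, against 398 and 483 (adjusted p = 0.0013). It also fell with the negative control MS177-N2, to 13.3 and 23.1, against 326 and 298 with DMSO in T47D-TR (adjusted p = 0.0049), and to 64.1 and 70.1, against 384 and 465 in BT-549 (adjusted p = 3.2e-07). With MS177 in both lines and with MS177-N2 in T47D-TR, IKBKE passed the filter on low values only through its DMSO libraries. Its p-values in those comparisons are therefore not independent of the high DMSO values. IKBKE in T47D had 18.8 and 29.2 with MS177, against 722 and 285 with DMSO (adjusted p = 0.131). The MS177-N2 libraries of T47D-TR, low in IKBKE, had 5.69 and 6.31 normalized counts of LCN2. A link between IKBKE and LCN2 was not tested. Over the whole list, 11 rose and 5 fell of 29 tested in T47D-TR, 3 rose and 4 fell of 33 in BT-549, and 2 rose of 31 with MS8815. The shares called, 55.2%, 21.2% and 6.45%, were near or below those of all genes (62.5%, 27.3% and 6.25%), so these counts are no result about the list. TRAF1 (7.62-fold), an adaptor of TNF receptors, and IRAK2 (3.29-fold), an interleukin-1 receptor kinase, rose in BT-549.

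**Figure D4:**
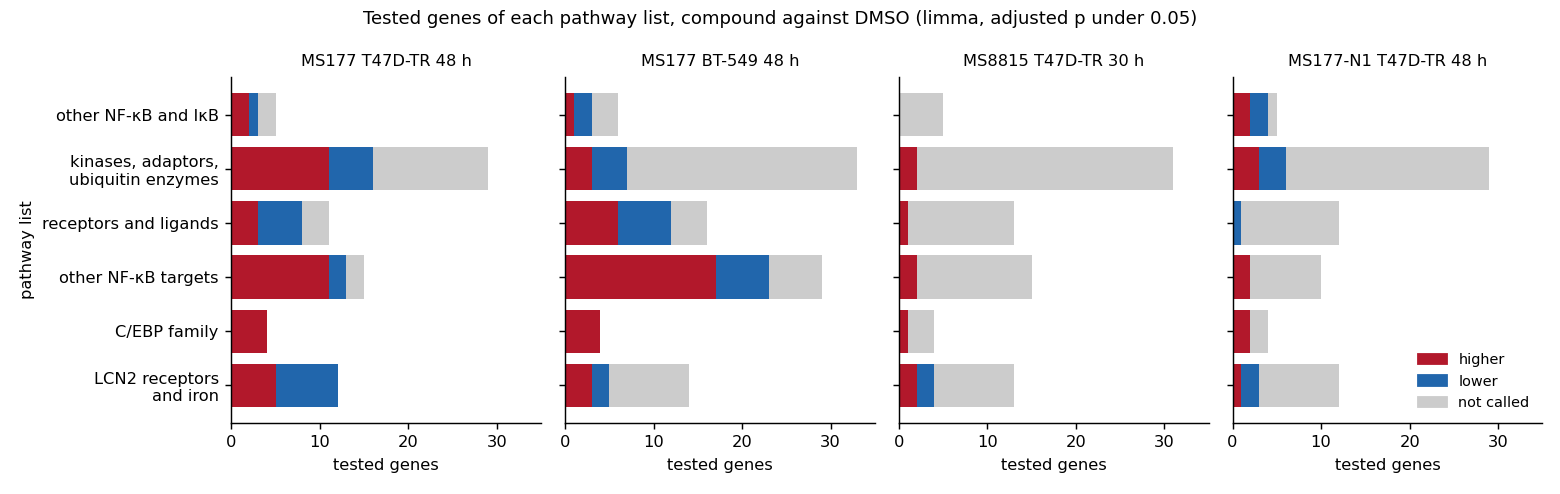
Tested genes of the 6 pathway lists that were higher, lower or not called against DMSO (limma, adjusted p under 0.05), in 4 comparisons. The list of other NF-κB targets holds 11 higher and 2 lower genes of 15 with MS177 in T47D-TR and 17 and 6 of 29 in BT-549, and all 4 tested genes of the C/EBP list are higher in both. Genes low with DMSO could be tested only where the compound libraries were high, and genes low with the compound only where the DMSO libraries were high.

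Among receptors and ligands, 3 rose and 5 fell of 11 with MS177 in T47D-TR, and 6 rose and 6 fell of 16 in BT-549. The shares called were 72.7% in T47D-TR, against 62.5% of all genes, and 75% in BT-549, against 27.3%. TNFRSF12A, a TNF-family receptor that signals through the non-canonical arm, had 6482 and 5916 normalized counts with MS177, against 365 and 387 with DMSO, in T47D-TR (16.5-fold, adjusted p = 5.1e-06). It rose with MS8815 as well (3.61-fold, adjusted p = 0.036). The death receptor gene TNFRSF10B rose with MS177 in T47D-TR (5.21-fold) and BT-549 (3.26-fold), and the interleukin-1 receptor gene IL1R1 fell in both (0.103-fold and 0.312-fold). IL1B had 116 and 113 with MS177, against 11.6 and 9.36 with DMSO, in BT-549 (10.9-fold, adjusted p = 0.0019). It passed the filter there only through its MS177 libraries.

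The other NF-κB and IκB genes changed in both directions. With MS177 in T47D-TR 2 rose and 1 fell of 5 tested. The share called, 60%, was near the 62.5% of all genes, so that count is no result about the list. In BT-549 1 rose and 2 fell of 6 (50% called, against 27.3% of all genes). NFKBIB, an IκB paralogue of NFKBIA, rose with MS177 in T47D-TR (3.09-fold) and in BT-549 (1.93-fold), where NFKBIA itself fell. NFKBIE rose in T47D-TR (2.78-fold), where the subunit gene REL fell (0.574-fold), and NFKBID (0.560-fold) and BCL3 (0.692-fold) fell in BT-549. RELA, the main canonical subunit, did not pass with MS177 in T47D-TR, at 1668 and 1400, against 1430 and 1730 with DMSO (adjusted p = 0.816), or in BT-549, at 4223 and 3372, against 2873 and 3403 (adjusted p = 0.265). With MS8815 0 of 5 passed.

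The genes of the C/EBP list, which leaves out CEBPD, rose with MS177 in T47D-TR and BT-549. All 4 tested passed in T47D-TR, where 62.5% of all genes were called. They were led by CEBPB with 2834 and 2876 normalized counts with MS177, against 527 and 460 with DMSO (5.78-fold, adjusted p = 1.0e-05), and CEBPG (4.90-fold). All 4 passed in BT-549 too, where 27.3% of all genes were called. There CEBPG was 3.44-fold, CEBPA 2.23-fold, CEBPB 1.5-fold and CEBPZ 1.48-fold higher, while CEBPD fell. In T47D 0 of 4 passed, and CEBPB had 8600 and 9438 with MS177, against 1933 and 2107 with DMSO (adjusted p = 0.128). With MS8815 CEBPB rose (4.69-fold, adjusted p = 0.030), and with MS177-N1 in T47D-TR CEBPB (1.61-fold) and CEBPZ (1.61-fold) did. CEBPZ shares only the name of the family.

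LCN2 binds iron through siderophores, so receptor and iron genes were listed too. With MS177 in T47D-TR 5 rose and 7 fell of 12, where 62.5% of all genes were called. FTH1, the ferritin heavy chain that stores iron, rose (4.16-fold), as did the haem-degrading enzyme HMOX1 (7.01-fold). The transferrin receptor gene TFRC fell (0.331-fold) and so did the iron exporter gene SLC40A1 (0.240-fold). With MS8815 the same 4 genes gave 89784 and 42423 against 14390 and 12825 with DMSO for FTH1 (adjusted p = 0.057), 52.1-fold for HMOX1, 0.244-fold for TFRC and 0.374-fold for SLC40A1 (adjusted p = 0.022, 0.034 and 0.039). In BT-549 the proposed LCN2 receptor gene SLC22A17 fell to 111 and 126 with MS177, against 342 and 397 with DMSO (0.321-fold, adjusted p = 0.0041), and HMOX1 rose (3.88-fold).

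The log2 differences of LCN2 over the 14 comparisons that list it were set against those of 12040 other genes. The 5 genes most like it were YKT6 (r = 0.99), a SNARE protein gene, KLF6 (r = 0.980), the antisense RNA OTUD6B-AS1 (r = 0.980), SERP1 (r = 0.978), a protein of the endoplasmic reticulum, and RAB24 (r = 0.976), a small GTPase gene. The points share DMSO libraries within a line and include MS177 in T47D-TR and T47D, which chose LCN2. The r values therefore describe the pattern and carry no p. YKT6 differed by 1.09 with MS177 in T47D-TR, 0.81 in T47D, 0.22 in BT-549 and 0.74 with MS8815, so its pattern was like that of LCN2 at a smaller size. Of the members RELB was most like LCN2 (r = 0.926, rank 135 of the 12040 genes), then NFKB2 (0.824, rank 814), TNFAIP3 (0.755, rank 1344) and CEBPD (0.716, rank 1641). Shared regulation was not tested. NFKBIZ (-0.10) and NFKB1 (-0.49) did not share the pattern.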

How the data were processed

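PolyA RNA was sequenced from NEBNext Ultra II libraries, per the labels' protocols. RSEM, DESeq and hg38 are named in the submitters' processing notes, without versions, and strand-specific counting is not given in the sources used here. The authors deposited 15 tables of log2 values, each a compound with its DMSO libraries, whose form is that of a variance-stabilizing transformation. Inverting it gave normalized counts. In T47D and BT-549 100% of these were whole reads within 0.05 after rescaling, and in T47D-TR 8.17% to 16.3% were.

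Each table was fitted alone with limma 3.58.1 in R 4.3.3 (mean trend, robust, two-sided, Benjamini-Hochberg over the table, threshold 0.05), on genes for which 2 or more libraries exceeded the lowest value of the table by 1 unit. A gene low with DMSO could pass this filter only through compound libraries where it was high. Likewise, a gene low with the compound could pass it only through DMSO libraries where it was high. Compounds were compared on log2(normalized count + 1) over all libraries of a line and time, with tables joined through their DMSO libraries, for genes that reached 10 normalized counts in 2 or more libraries. The fits were tested on simulated data. Folds are ratios of mean normalized counts and are not given where a mean is under 10. Where both groups have 2 libraries, n = 2 each.

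The text names the 10 members and EZH2, up to 4 genes per pathway list past the threshold with the largest difference in a comparison, and the 5 genes with the highest Pearson r to LCN2, over 14 comparisons because LCN2 is not listed in the MS8815-N table. RELA, MAP3K14, IKBKE, IL32, FTH1 and CEBPB are also given in comparisons where they did not pass, and the marker ELANE in one, a choice made after their values were seen. The members and lists were chosen with earlier results of these data known.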

Additional observations from a re-analysis of the deposited data

Results flagged for a closer look

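Several members lay wholly above DMSO in one line and wholly below it in another under the same compound at 48 h. The difference between lines was not tested, and the compounds of a line share DMSO libraries. Values are differences in log2(normalized count + 1), the line above DMSO minus the line below it.

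With MS177, NFKBIZ differed by 2.37 between BT-549 (above) and T47D-TR (below). RELB differed by 2.66 between T47D-TR and BT-549 and by 1.68 between T47D and BT-549. CEBPD differed by 1.24 between T47D-TR and BT-549 and by 1.81 between T47D and BT-549. BIRC3 differed by 1.83 between T47D-TR and T47D. TNFAIP2 differed by 0.86 between T47D-TR and T47D and by 0.54 between T47D-TR and BT-549.

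With MS177-N1, T47D-TR lay above and BT-549 below for LCN2 (2.04, which depends on the pseudocount), NFKBIA (0.72), TNFAIP2 (0.90) and NFKB2 (0.62), and BT-549 above and T47D-TR below for NFKB1 (1.18). With MS177-N2, NFKBIA differed by 0.41 between T47D-TR and BT-549, and NFKB2 by 0.37 between T47D and BT-549. With C24, T47D-TR lay above T47D for NFKBIA (0.35) and above BT-549 for NFKBIA (0.51), TNFAIP2 (0.78) and RELB (0.37). T47D lay above BT-549 with C24 for TNFAIP2 (0.62) and BIRC3 (0.75).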

How the results depend on the processing

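With 2 libraries a group, counts of called genes depend on the settings, and depth is known for T47D and BT-549 only. Over the members' values, 1392 alternatives kept direction and either their side of the threshold or, untested, a place within 1 SD. Another 33 passed it anew, 30 no longer passed, 23 moved values by more than 1 SD with the same sign, and 60 changed sign. Of those 60, 0 had passed the test as reported, and 1 passed it with its sign changed: CEBPD with MS8815-N, at 0.03, ranged over -0.27 (without MS8815-N replicate 1) to 0.32 (without replicate 2). The cause of these shifts was not tested.

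Genes called under other settings were as follows. Fitting all libraries of a line and time gave 3150 for MS177 in T47D, 5 for MS177-N1 and 0 for C24 in T47D-TR, 0 for MS177-N1 and for C24 in T47D, 99 for MS177-N2 in BT-549 and 11 for MS8815. On log2(normalized count + 1) C24 in T47D-TR gave 2 and MS177-N1 in T47D 11, and with a pseudocount of 10 these were also 2 and 11, with 36 for MS8815 against MS8815-N. No filter gave 434 for MS8815. Fits of the compared compounds and DMSO alone gave 0 for MS8815 against MS8815-N, 575 against EPZ-6438, and 3148 for MS177-N2 against MS177-N1 in T47D-TR.

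Samples shared only a replicate number: deviations of same-numbered libraries correlated at -0.725 to 0.734 over 2 pairs a comparison. With the replicate block, MS177 gave 916 in T47D, MS177-N2 54 in T47D-TR and 21 in T47D, C24 23, 296 and 145 in T47D-TR, T47D and BT-549, MS177-N1 2883 in BT-549, MS8815 24 against MS8815-N and 23 against EPZ-6438, and MS177-N2 27 against MS177-N1 in T47D-TR.

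Leaving out single libraries gave, in T47D-TR, 5117 to 6408 for MS177, 27 to 3023 for MS177-N1, 16 to 37 for MS177-N2 and 4 to 74 for C24. In T47D it gave 48 to 12477 for MS177, 16 to 957 for MS177-N2 and 27 to 2355 for C24. In BT-549 it gave 2520 to 3954 for MS177, 10 to 36 for MS177-N1, 126 to 1446 for MS177-N2 and 43 to 787 for C24. At 30 h it gave 60 to 7092 for MS8815, 0 to 7729 for MS8815-N and 15 to 4969 for EPZ-6438. Between compounds MS177 in BT-549 gave 3249 to 4693 against MS177-N1, 3724 to 5446 against MS177-N2 and 3352 to 5001 against C24. MS8815 gave 0 to 7764 against MS8815-N and 0 against EPZ-6438. For MS177-N2 against MS177-N1 it gave 12 to 122 (T47D-TR) and 20 to 36 (BT-549).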
